A study of Mus musculus with 6 samples.

Results

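The genes described here code for the folding, stress-sensing and disposal machinery of the endoplasmic reticulum (ER), measured in 4T1 cells with and without a METTL7A1 transgene. The set was named by gene symbol and holds 40 of the 48587 genes in the count table, all 40 of which were found. It comprises 11 genes of the BiP and GRP94 chaperone system, 2 lectin chaperones, 6 disulfide isomerases, 7 sensors, effectors and regulators of the unfolded protein response (UPR), 12 genes of ER-associated degradation (ERAD) and 2 subunits of the Sec61 channel. The 4T1 line is a mouse mammary carcinoma line, and METTL7A1 is a membrane-associated methyltransferase-like protein. Total RNA was sequenced from 3 libraries of cells stably transfected with Mettl7a1 cDNA (4T1-METTL7A1) and 3 libraries of cells given the empty vector (mock), described as biological triplicates. Both groups went through lipofection and were kept under the antibiotic G418, and the transgene was driven by the viral CMV promoter. The sources do not state whether either population was a clone or a pool of transfectants, so p-values measure the spread between these libraries and not between independently derived lines.

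Proteins that enter the ER are bound by the Hsp70 chaperone BiP (Hspa5) and its co-chaperones, by the lectins calnexin and calreticulin and by disulfide isomerases, and those that fail to fold are passed back through the membrane and degraded by the proteasome. A load of unfolded protein is sensed by IRE1 (Ern1), ATF6 (Atf6) and PERK (Eif2ak3). IRE1 splices Xbp1 mRNA, ATF6 is cut into a transcription factor and PERK phosphorylates eIF2α, after which Atf4 is translated more and chaperone and ERAD genes are transcribed. Gene-level counts report mRNA amounts only: they do not show Xbp1 splicing, ATF6 cleavage or kinase activity.

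The libraries held 18386780 to 28459338 counts. Mettl7a1 stood at 342.5, 384.5 and 421.6 cpm (counts divided by the TMM-scaled library size and multiplied by a constant) in the METTL7A1 libraries and at 1.64, 1.24 and 1.17 cpm in mock, reads from cDNA and chromosomal gene not being separable. The 2 ribosomal repeat genes Gm42418 and AY036118 took 1.48% to 14.2% of counts in mock and 0.872% to 4.94% in METTL7A1 libraries, and mitochondrially encoded genes took 8.61% to 11.5% and 12.4% to 17.7%. Epithelial markers (Krt8, Krt18, Epcam, Cdh1) summed to 1370 to 1680 cpm in mock and 1410 to 1670 cpm in METTL7A1 libraries. Leukocyte markers (Ptprc, Cd68, Adgre1, Cd3e) summed to 4.87 to 6.28 cpm in mock and 11.5 to 14.1 cpm in METTL7A1 libraries, nearly all of it Cd68, with Cd3e at 0 and Ptprc below 1 cpm in every library. Fibroblast markers summed to 17.4 to 19.8 and 23.9 to 26.6 cpm, nearly all of it Pdgfra, and endothelial markers stayed below 1 cpm in every library. With AY036118 as a covariate centred within groups, 24 members were called higher and 7 lower where 51.5% of all genes were called, against 19, 4 and 42.1% without it, and no member lost its call. This covariate takes up spread within a group only, and the part of the difference between groups in the repeats, and of the other shifts, in the results that follow was not tested.

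Some members share short promoter elements through which ATF6 and XBP1 are known to act, and these are shown because they group the members by something other than their response. Promoter windows of 300 bases, from 250 before to 50 after the RefSeq start on GRCm38.p6, were on hand for 31 of the 40 members. Windows for Erlec1, Derl1, Hyou1, Ppp1r15b, Sec61a1, Sil1, Manf, Atf6 and Hspa13 were not used here. Both strands were searched for the ER stress response element (ERSE, CCAAT then 9 bases then CCACG), ERSE-II (ATTGG, 1 base, CCACG), the UPR element (UPRE, TGACGTGG) and the core of the C/EBP-ATF response element bound by ATF4 (CARE core, TTGCATCA). Only exact matches were counted, so imperfect copies of an element are left out of every count given here. These motifs did not overlap each other in any of the windows printed. The ERSE was found in 9 of the 31 members, 29.0%, against 0.137% of all 27025 genes in the promoter table, a description of these windows and not of any factor bound there. Each is given 5′ to 3′ in the direction of the element, with the flanking boxes in capitals:
Hspa5: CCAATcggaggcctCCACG
Hsp90b1, distal: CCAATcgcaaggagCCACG
Hsp90b1, proximal: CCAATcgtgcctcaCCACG
Creld2: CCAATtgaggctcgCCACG
Calr: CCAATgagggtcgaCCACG
Canx: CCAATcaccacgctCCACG
Pdia6: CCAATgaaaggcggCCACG
Dnajc3: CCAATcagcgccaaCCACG
Syvn1: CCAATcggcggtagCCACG
Derl3: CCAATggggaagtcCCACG

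The boxes are the same by construction, and the spacer differed in every copy. ERSE-II was found in 2 members, 6.45% against 0.0444% of all genes. It lay 52 to 42 bases before the start of Herpud1 and 8 to 18 bases after the start of Dnajb11, with the boxes again in capitals:
Herpud1: ATTGGgCCACG
Dnajb11: ATTGGcCCACG

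The UPRE was found in Txndc5, Txndc11 and Vcp, 9.68% against 0.714% of all genes, and the CARE core in Herpud1 alone, 3.23% against 1.03%. The whole windows of the 3 genes that lead the account that follows are printed in the direction of transcription, with the elements in capitals. Hspa5 holds 1 exact match to the ERSE, at chr2:34772025-34772043. Hsp90b1, on the minus strand, holds 2 exact matches to the ERSE, at chr10:86705638-86705656 and, in the opposite orientation, at chr10:86705533-86705551. Herpud1 holds a CARE core at chr8:94386317-94386324, then an ERSE-II at chr8:94386377-94386387.
Hspa5, chr2:34771840-34772139, plus strand: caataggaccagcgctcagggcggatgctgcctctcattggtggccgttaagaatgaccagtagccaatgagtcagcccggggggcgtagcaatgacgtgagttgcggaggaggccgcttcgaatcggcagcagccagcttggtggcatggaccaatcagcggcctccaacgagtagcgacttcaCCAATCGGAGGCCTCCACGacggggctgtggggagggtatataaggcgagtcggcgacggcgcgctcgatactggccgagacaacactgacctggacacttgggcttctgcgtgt
Hsp90b1, chr10:86705395-86705694, minus strand: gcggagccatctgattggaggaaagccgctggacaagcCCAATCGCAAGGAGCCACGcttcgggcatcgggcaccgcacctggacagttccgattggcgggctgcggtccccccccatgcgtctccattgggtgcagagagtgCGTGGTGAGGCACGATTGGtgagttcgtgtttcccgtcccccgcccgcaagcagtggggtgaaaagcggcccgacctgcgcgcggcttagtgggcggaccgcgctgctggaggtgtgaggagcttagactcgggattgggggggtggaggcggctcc
Herpud1, chr8:94386179-94386478, plus strand: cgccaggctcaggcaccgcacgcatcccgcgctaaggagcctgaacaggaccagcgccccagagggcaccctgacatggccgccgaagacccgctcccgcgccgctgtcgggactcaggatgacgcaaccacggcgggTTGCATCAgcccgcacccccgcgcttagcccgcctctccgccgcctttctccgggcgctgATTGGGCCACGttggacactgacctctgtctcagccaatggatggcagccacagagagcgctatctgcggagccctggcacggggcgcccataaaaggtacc

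To ask how METTL7A1 expression was accompanied by changes in this machinery, the 2 groups were compared with edgeR's quasi-likelihood test over 13166 genes, and a gene was called at a Benjamini-Hochberg adjusted p under 0.05. Of the 39 members tested, 19 were higher in METTL7A1 cells, 4 were lower (Ern1, Txndc5, Sel1l and Sec61b) and 16 were not called. The members called higher made up 48.7% of those tested, against 21.1% of all genes called higher and 21.0% called lower. In either direction 59.0% of members were called against 42.1% of all genes. The changes were modest: 37 of 39 lay within 1 log2 unit of no change, the median member stood at 0.24 and the median gene at -0.03. No member passed the thresholds of the study (adjusted p under 0.01 and a log2 change beyond 1.5, the base taken as 2), which 326 genes, 2.48%, passed. Herpud1, at 1.49, came nearest. The 3 METTL7A1 libraries lay above all 3 mock libraries for 19 members, against 25.9% of all genes, and below them for 4, against 25.6%. The 16 members not called ran from -0.27 to 0.26, with adjusted p-values from 0.061 to 0.89, and 11 of them were called under at least 1 of the alternatives. Derl3, an ERAD membrane protein usually made in secretory tissues, drew 1 to 4 counts per library and was not tested.

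**Figure D1:**
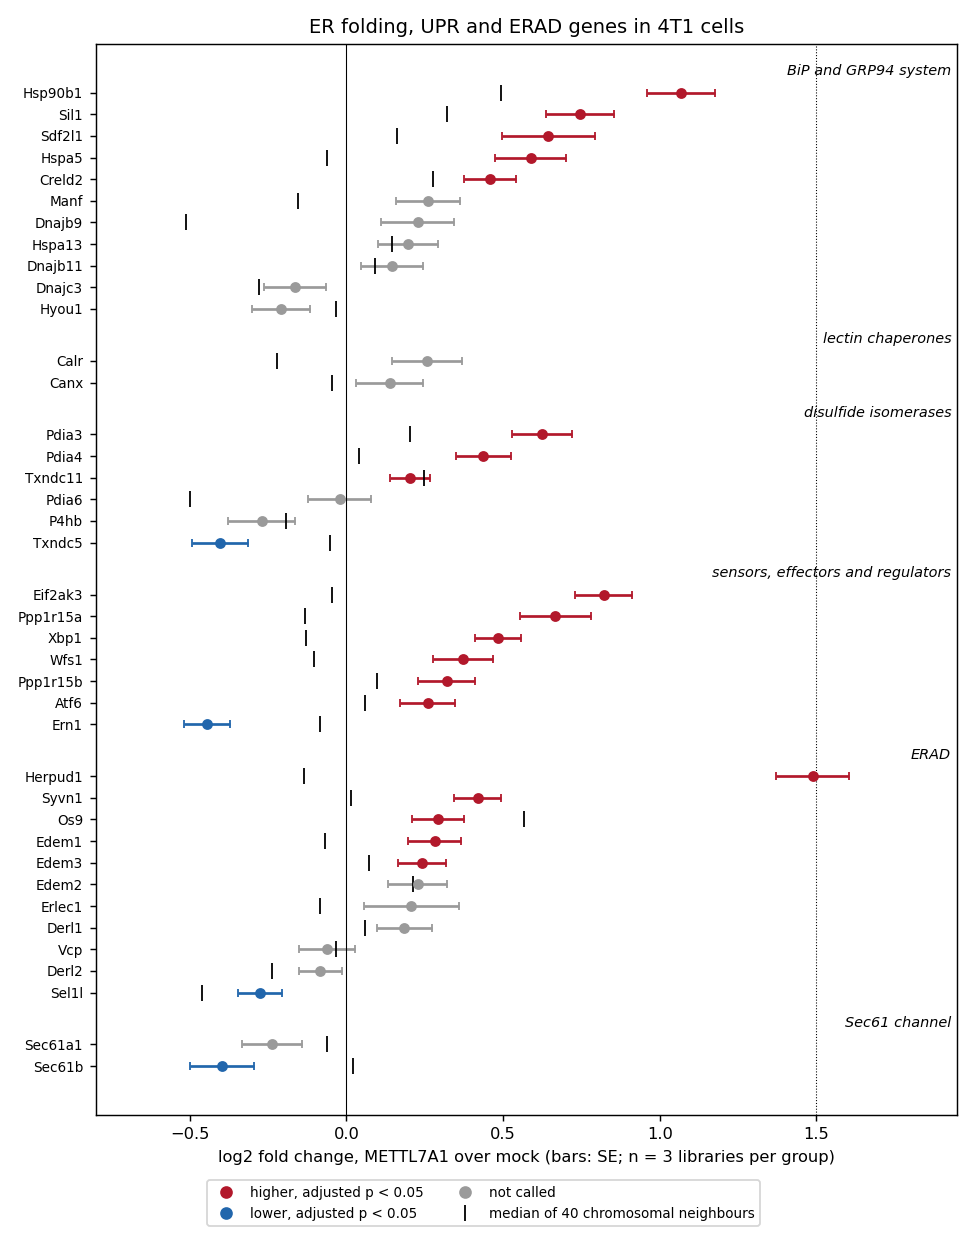
Log2 fold change of METTL7A1 over mock for the 39 tested members, ordered by role, with SE bars (n = 3 libraries per group), colour for the call at adjusted p under 0.05, a tick for the median of 40 chromosomal neighbours and a dotted line at 1.5. Most called members lie to the right of 0, Herpud1 sits at 1.49, and Ern1, Txndc5, Sel1l and Sec61b are the 4 called lower.

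In the BiP and GRP94 system, 5 of 11 genes were higher, none was called lower and 6 were not called, with a median log2 change of 0.26. Hspa5 (BiP, chr2:34771970-34777547), the Hsp70 of the ER lumen, stood at 1730, 1901 and 1570 cpm in mock and at 2410, 2731 and 2678 cpm in METTL7A1 libraries. The groups did not overlap, and the fitted rise on the log2 scale was 0.59 (SE 0.11, adjusted p = 0.00166). Hsp90b1 (GRP94, chr10:86690840-86705509), the Hsp90 of the lumen, stood at 1144, 1281 and 1096 cpm in mock and at 2260, 2541 and 2586 cpm in METTL7A1 libraries. It rose 2.10-fold (log2 1.07, SE 0.11, adjusted p = 2.41e-05), with every METTL7A1 library above every mock library. Its 40 nearest expressed neighbours on the chromosome had a median of 0.49. With that median as a fixed offset, Hsp90b1 rose by 0.58 (adjusted p = 0.00204). Such p-values, here and below, leave out the spread among the neighbours.

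Sil1, which exchanges the nucleotide on BiP, was expressed far below its partner. Its mock values were 10.2, 9.41 and 8.25 cpm and its METTL7A1 values 14.8, 15.7 and 16.0 cpm, without overlap, a log2 rise of 0.75 (SE 0.11, adjusted p = 0.000313). The neighbours of Sil1 had a median of 0.32, and it rose by 0.43 beyond them (adjusted p = 0.0126). Hyou1 (GRP170), the other nucleotide exchange factor in the set, went from 442 ± 48 to 382 ± 19 cpm (SD, n = 3), and its difference of -0.21 was not called (adjusted p = 0.0912). Sdf2l1, which works with the J-domain protein ERdj3, rose by 0.64 (SE 0.15, adjusted p = 0.00513) from 8.9 ± 1.6 to 13.9 ± 2.0 cpm. Creld2, a small ER stress-inducible protein, rose by 0.46 (SE 0.08, adjusted p = 0.0013) from 25.4 ± 1.7 to 34.8 ± 2.2 cpm. None of the 3 J-domain co-chaperones was called: Dnajb9 (ERdj4) stood at 0.23, Dnajb11 (ERdj3) at 0.15 and Dnajc3 (p58IPK) at -0.16 on the log2 scale. Dnajb9 did not overlap between groups (10.71 to 11.02 cpm in mock, 11.3 to 14.6 cpm in METTL7A1), yet its adjusted p was 0.14. Hspa13, an Hsp70-like ATPase, differed by 0.20 and Manf, a secreted factor that binds BiP, by 0.26, neither called. Manf shares exon positions on the same strand with Rbm15b, whose counts reached 2421 where those of Manf began at 1482, so its value is uncertain.

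The lectin chaperones, which hold glycoproteins in the folding cycle, were not called. Calr (calreticulin) stood at 679 ± 64 cpm in mock and 812 ± 103 cpm in METTL7A1 libraries (log2 0.26, adjusted p = 0.0828), and its groups overlapped. Canx (calnexin) stood at 1127 ± 90 and 1240 ± 127 cpm (log2 0.14, adjusted p = 0.327).

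The 6 disulfide isomerases split, with 3 higher, 1 lower and 2 not called. Pdia3 (ERp57, chr2:121413775-121438687), which works on glycoproteins held by the 2 lectins, stood at 353.1, 426.2 and 381.2 cpm in mock and at 542.7, 602.8 and 644.2 cpm in METTL7A1 libraries. It rose by 0.62 (SE 0.10, adjusted p = 0.000417), the lowest METTL7A1 library lying above the highest mock library. Pdia4 (ERp72) rose by 0.44 (SE 0.09, adjusted p = 0.00222), and Txndc11, a reductase linked to glycoprotein disposal, by 0.20 (SE 0.06, adjusted p = 0.0249). The Txndc11 call was lost without METTL7A1 replicate 2 (log2 0.21) or mock replicate 2 (log2 0.19), and its neighbours stood at 0.25. Txndc5 (ERp46) fell by 0.40 (SE 0.09, adjusted p = 0.0039), from 190.5, 191.6 and 164.4 cpm to 123.3, 144.8 and 144.6 cpm, again without overlap. P4hb, the founding protein disulfide isomerase, stood at -0.27 (adjusted p = 0.0628) and Pdia6 (P5) at -0.02 (adjusted p = 0.89), neither called. Pdia3 and Txndc5, both thioredoxin-fold oxidoreductases of the lumen, were thus called in opposite directions.

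All 7 sensors, effectors and regulators were called, 6 higher and 1 lower, where 42.1% of all genes were called and 21.1% were called higher. Set against their chromosomal neighbours, as described below, 4 were called higher and 1 lower. Eif2ak3 (PERK, chr6:70844515-70905245) was the sensor with the largest difference: 15.7, 16.6 and 14.8 cpm in mock against 25.2, 28.6 and 29.2 cpm in METTL7A1 libraries. The rise was 0.82 (SE 0.09, adjusted p = 4.49e-05) with no overlap. Ern1 (IRE1, chr11:106394650-106487836) went the other way, from 128.9, 116.2 and 134.6 cpm to 91.5, 95.7 and 91.5 cpm. It fell by 0.45 (SE 0.07, adjusted p = 0.000621), and its highest METTL7A1 library lay below its lowest mock library. Atf6 (chr1:170704674-170867771) stood at 100.4, 113.6 and 100.5 cpm in mock and at 110.7, 131.0 and 134.5 cpm in METTL7A1 libraries. Its rise of 0.26 (SE 0.09, adjusted p = 0.0337) was the least firm of the 3, since the groups overlapped and the call was lost on leaving out METTL7A1 replicate 2 (log2 0.23) or replicate 3 (0.21) or mock replicate 1 (0.25) or replicate 3 (0.24).

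Xbp1 (chr11:5520659-5525893), the mRNA that IRE1 splices, rose while Ern1 fell. It stood at 54.6, 55.2 and 48.4 cpm in mock and at 72.9, 72.6 and 75.5 cpm in METTL7A1 libraries, a tight and non-overlapping difference of 0.48 (SE 0.07, adjusted p = 0.000349). Both eIF2α phosphatase subunits were higher. The stress-inducible Ppp1r15a (GADD34) rose by 0.67 (SE 0.11, adjusted p = 0.000767), from 9.07 ± 0.61 to 14.3 ± 1.3 cpm, and the constitutive Ppp1r15b (CReP) by 0.32 (SE 0.09, adjusted p = 0.0153), from 185 ± 12 to 231 ± 26 cpm. The Ppp1r15b call was lost without METTL7A1 replicate 2 (log2 0.32) or replicate 3 (log2 0.24). Wfs1 (wolframin), an ER membrane protein, rose by 0.37 (SE 0.10, adjusted p = 0.00892) from 14.3 ± 1.0 to 18.4 ± 1.0 cpm. Without METTL7A1 replicate 2 it stood at 0.35 and was not called.

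**Figure D2:**
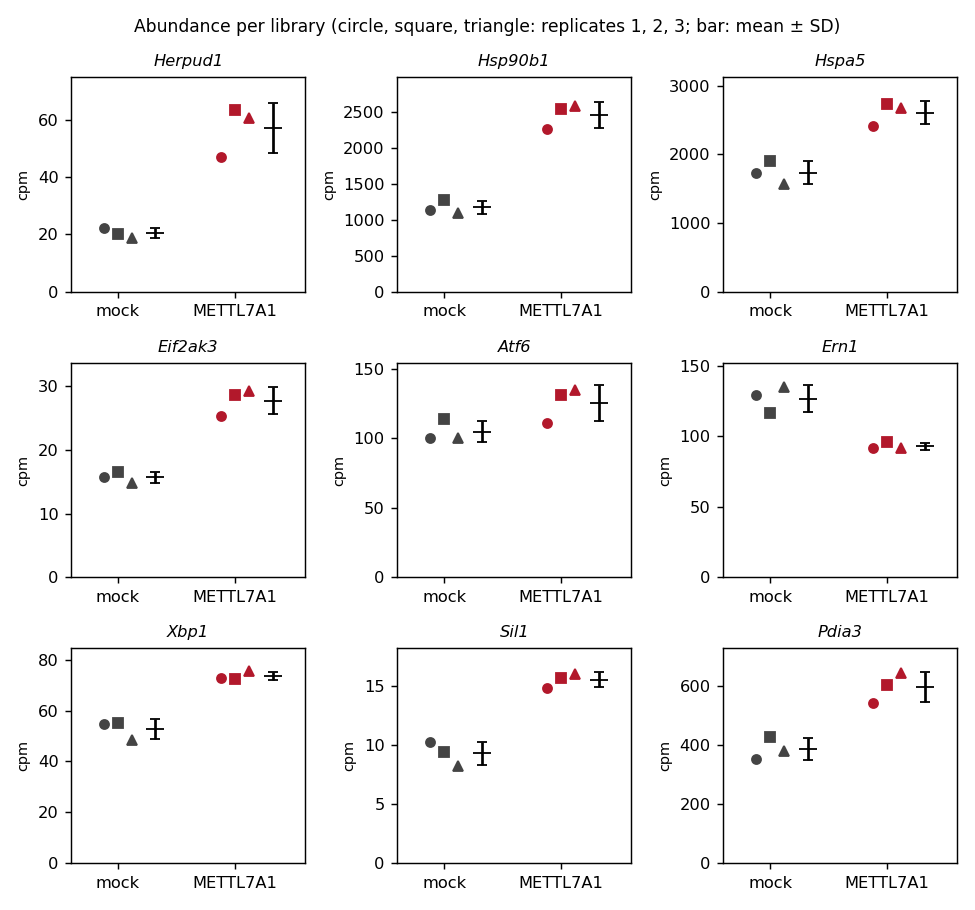
Abundance in cpm (linear axes from 0) of 9 members in each of the 3 mock and 3 METTL7A1 libraries, with the mean and SD of each group as a bar. In 8 panels the groups are apart, Ern1 with METTL7A1 below mock and the others above, while in the Atf6 panel METTL7A1 replicate 1 (110.7 cpm) lies below mock replicate 2 (113.6 cpm).

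In ERAD, 5 of 11 tested genes were higher, 1 was lower and 5 were not called. Herpud1 (chr8:94386438-94395377), a membrane scaffold of the HRD1 ubiquitin ligase, showed the largest change of any member. It stood at 22.3, 20.3 and 18.7 cpm in mock and at 47.0, 63.3 and 60.7 cpm in METTL7A1 libraries. The fitted rise was 2.80-fold (log2 1.49, SE 0.12, adjusted p = 3.49e-06), and its lowest METTL7A1 library was above every mock library. The ligase itself, Syvn1 (HRD1), rose by 0.42 (SE 0.07, adjusted p = 0.00103), from 38.7, 35.5 and 36.6 cpm to 52.4, 48.9 and 46.8 cpm. Its adaptor Sel1l fell by 0.28 (SE 0.07, adjusted p = 0.0094), from 136.6, 148.9 and 130.5 cpm to 111.7, 114.9 and 117.0 cpm, so these 3 parts of the HRD1 complex did not move in the same direction. Sel1l lies among genes with a median of -0.46, and against them it stood at 0.19 (adjusted p = 0.0688).

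The mannosidase-like Edem proteins mark glycoproteins for disposal. Edem1 rose by 0.28 (SE 0.08, adjusted p = 0.0197) and Edem3 by 0.24 (SE 0.08, adjusted p = 0.0246), while Edem2 stood at 0.23 (adjusted p = 0.0777). The Edem1 call was lost without METTL7A1 replicate 2 or 3 (log2 0.29 and 0.24), and that of Edem3 without either of these (0.24 and 0.22) or without mock replicate 1 or 3 (0.24 and 0.20). Of the ERAD lectins, Os9 rose by 0.29 (SE 0.08, adjusted p = 0.0149) and Erlec1 stood at 0.21 (adjusted p = 0.299). Os9 lies among genes with a median of 0.57, higher than its own value, and without METTL7A1 replicate 2 it stood at 0.25 and was not called. Derl1 (0.19), Derl2 (-0.08) and Vcp (-0.06), the ATPase that pulls substrates out of the membrane, were not called. Derl2 and Syvn1 overlap Mis12 and Mrpl49 on the opposite strand, whose counts reached 1458 and 1290 against minima of 912 and 708 for the members, and the counting is not stated to use strand, so both values are uncertain.

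Neither of the 2 subunits in the set of the Sec61 channel, through which new chains enter the ER, was higher. A further subunit, Sec61g, was read in the translocation list and was called lower at -0.24 (adjusted p = 0.046). Against its chromosomal neighbours Sec61g stood at -0.22 and was not called (adjusted p = 0.084). Sec61b fell by 0.40 (SE 0.10, adjusted p = 0.009) from 38.2, 40.9 and 32.8 cpm to 24.9, 29.7 and 30.1 cpm, without overlap, and Sec61a1 stood at -0.24 (adjusted p = 0.0662).

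Compared per length, as cpm per kilobase of exon, the members spanned a wide range of levels and the top of the order shifted. In mock the order was Hspa5 at 461.9, Hsp90b1 at 415.6, Calr at 311.1 and Canx at 263.0 cpm per kb, followed by P4hb at 211.5 and Pdia6 at 187.5. In METTL7A1 cells Hsp90b1 led at 871.5, ahead of Hspa5 at 694.2, Calr at 371.8 and Canx at 289.4 cpm per kb, and Pdia3, which P4hb and Pdia6 had preceded in mock at 139.6, passed both at 215.4. The differences between neighbours in this order were not tested. Hspa5 and Hsp90b1 together took 31.0% to 31.7% of the summed cpm of the 40 members in mock and 42.0% to 42.9% in METTL7A1 libraries. The sum over all members was 8510 to 10050 cpm in mock and 10880 to 12540 cpm in METTL7A1 libraries, but the sum without those 2 genes was 5845 to 6864 and 6209 to 7274 cpm, which overlapped.

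Replicate libraries differed in the members as a set. Relative to its own group mean, the median member stood at -0.13 in METTL7A1 replicate 1, 0.04 in replicate 2 and 0.08 in replicate 3, and at 0.01, 0.10 and -0.10 in mock replicates 1, 2 and 3. Over all tested genes the same medians lay between -0.03 and 0.02. In METTL7A1 replicate 1 only 4 of 39 members were above the group mean and in mock replicate 3 also 4, against 31 and 35 in METTL7A1 replicates 2 and 3 and 34 in mock replicate 2. Without METTL7A1 replicate 1, 25 members were higher and 4 lower where 41.7% of all genes were called. Without METTL7A1 replicate 2, 12 members were higher and 4 lower, and the share of all genes called was also lower, at 29.1%. METTL7A1 replicate 1 also had the largest share of mitochondrial counts (17.7%) and the fewest counts (18386780). METTL7A1 replicate 1 and mock replicate 3 each had the smallest share of ribosomal repeat counts in their group (0.872% and 1.48%). The part of these traits in the spread was not tested.

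**Figure D3:**
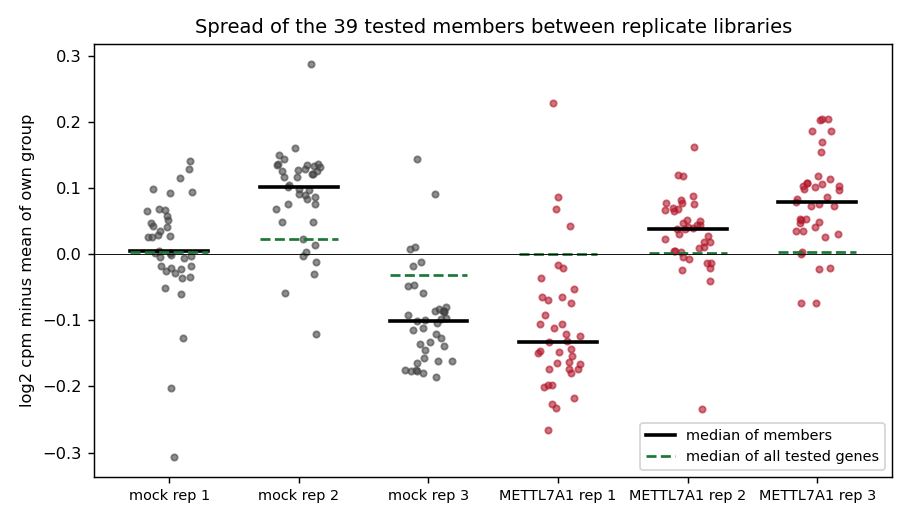
Each point is 1 of the 39 tested members in 1 library, plotted as log2 cpm minus the mean of its own group. Solid bars are the medians of members and dashed bars those of all tested genes, and most members lie below 0 in METTL7A1 replicate 1 (median -0.13) and mock replicate 3 (median -0.10).

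The median difference between the groups was not the same on every chromosome. Over tested genes with an average log2 cpm over 2, it was -0.42 on chromosome 12, 0.29 on chromosome 10 and 0.34 on chromosome 18. Each member was therefore also compared with the median of its 40 nearest expressed neighbours, members left out. The farthest of these lay from 0.495 Mb (Syvn1) to 30.8 Mb (Dnajc3) away. For Dnajb9 and Pdia6 it lay 11.3 and 12.3 Mb away, so the neighbours are not always local. The median of these medians was -0.05, and 8 members had one beyond 0.25 in size. With this median as an offset, 17 members were higher and 4 lower, where 31.5% of all genes were called and 18.1% were called higher. The offset was taken as known without error, so its p-values measure the spread between libraries and not that among the neighbours. Of the 23 called members, 16 were called in the same direction with the offset. Creld2, Txndc11, Atf6, Ppp1r15b, Sel1l and Edem3 lost their call. Os9, higher by itself, stood 0.28 below the median of its neighbours on the log2 scale (adjusted p = 0.0258). Dnajb9 (0.74), Pdia6 (0.48), Calr (0.48) and Manf (0.41) were called higher with the offset only. Dnajb9 and Pdia6 lie on chromosome 12, with neighbour medians of -0.51 and -0.50. Herpud1, Eif2ak3 and Xbp1 had neighbours slightly below 0 and stood at 1.62, 0.87 and 0.61 against them.

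**Figure D4:**
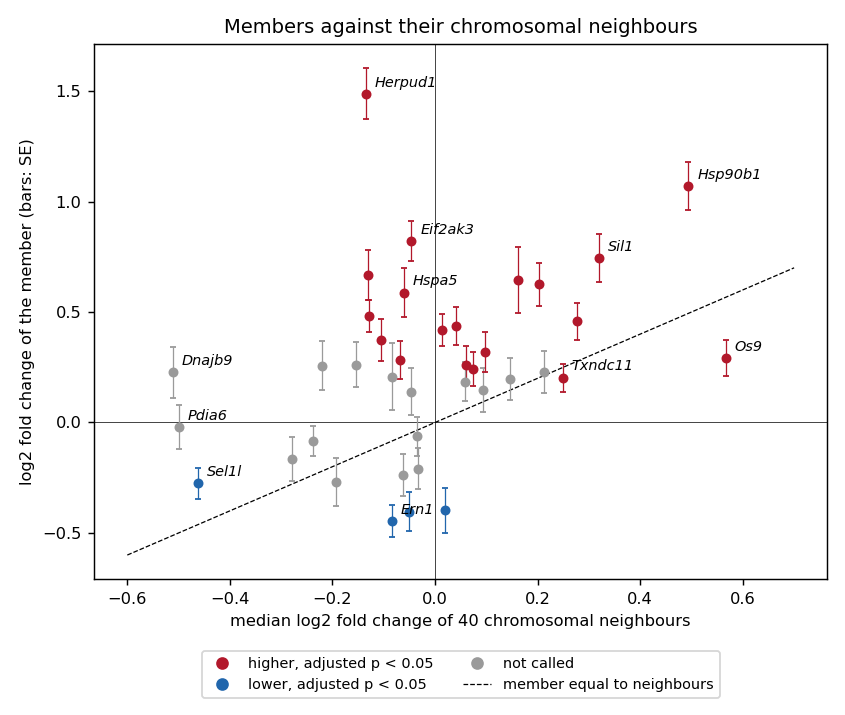
Log2 fold change of each tested member (vertical, SE bars) against the median log2 fold change of its 40 nearest expressed neighbours (horizontal), with a dashed line where a member equals its neighbours. Herpud1 stands at 1.49 over neighbours at -0.14, whereas Os9 at 0.29 lies below its neighbours at 0.57.

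Members with and without an ERSE overlapped in response. Of the 8 tested members with an ERSE, 4 were higher (Hsp90b1, Hspa5, Creld2 and Syvn1) and 4 were not called (Calr, Canx, Pdia6 and Dnajc3), with a median of 0.34 and a range from -0.16 to 1.07. Of the 22 tested members with a window and no ERSE, 12 were higher, 4 lower and 6 not called, with a median of 0.23. These 22 include the members with an ERSE-II or a UPRE, and Herpud1 is the highest of them. The 2 ERSE-II members lay far apart, Herpud1 at 1.49 and Dnajb11 at 0.15. Of the UPRE members, Txndc11 was called higher, Txndc5 lower and Vcp was not called. Eif2ak3, Xbp1 and Pdia3 rose with none of the 4 motifs in their windows, which says only that these letters are not there.

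**Figure D5:**
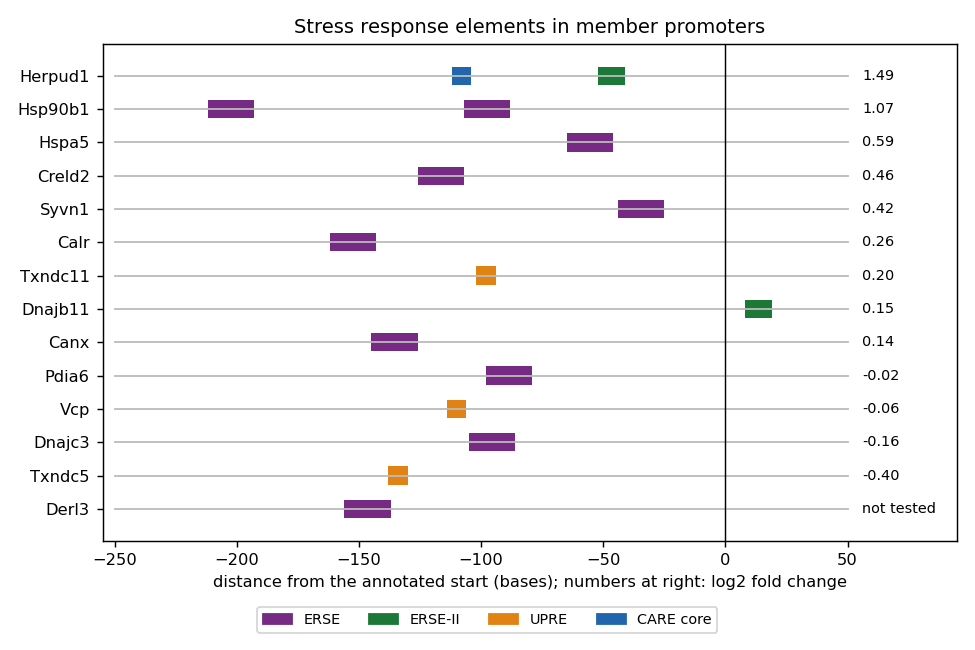
Position of each element, in bases from the RefSeq start, in the windows of the 14 members that hold any, sorted by the log2 fold change written at the right. Members with an ERSE run from 1.07 (Hsp90b1, 2 copies) down to -0.16 (Dnajc3).

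Other genes of the same pathways were read from 8 lists, against 42.1% of all genes called and 21.1% called higher. The list with the largest median was the ATF4 and CHOP arm, whose 10 genes were all called higher, with changes from 0.83 to 3.59. Its median was 1.83, and 6 of its genes were past the study thresholds. The lists were chosen with earlier results of these data known, and the part of PERK in these rises was not tested. Chac1, which degrades glutathione, rose by 3.59 (SE 0.17, adjusted p = 1.12e-07), from 2.70 ± 0.29 to 32.4 ± 6.6 cpm. Trib3, a pseudokinase that binds ATF4, rose by 2.49, Ddit4, an inhibitor of mTORC1, by 2.48 and Ddit3 (CHOP) by 2.40. The median over the 39 tested members was 0.24.

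The remaining 7 lists held genes called in both directions. Among the genes of oxidative folding and prolyl isomerisation, 9 of 21 were higher and 3 lower, Ero1lb, an oxidase that recharges the disulfide isomerases, rising by 1.09 and the prolyl isomerase Fkbp11 falling by 1.05. Among ERAD genes other than the members, 9 of 26 were higher and 4 lower, with Rhbdd1 and Rnf5 both up by 0.74 and Ubac2 down by 0.83. Among other UPR factors, 2 of 11 were higher and 2 lower, including Tmbim6, a membrane regulator of IRE1, at 0.71 and Eif2s1, the eIF2α subunit that PERK phosphorylates, at -0.70. Eif2s1 lies among genes with a median of -0.46, and with the neighbour offset it stood at -0.24 and was not called (adjusted p = 0.0511). With that offset 1 gene of this list was called higher and 1 lower. In N-glycan addition and glycoprotein quality control 2 of 18 were higher and 3 lower, and in translocation 4 of 20 were higher and 1 lower, with medians of -0.02 and -0.01. ER calcium genes gave 3 of 9 higher and 1 lower, with Itpr2, an inositol trisphosphate receptor, at 0.69. Of 6 tested transcripts that IRE1 is known to cut, 3 were higher and 2 lower. They included Pmp22, a myelin protein, at 2.75 and Galnt10, a glycosyltransferase, at -0.59. With the neighbour offset, 18.1% of all genes were called higher. Genes called higher and lower were then 6 and 1 for oxidative folding, 10 and 1 for other ERAD and 1 and 1 for N-glycan genes. For translocation they were 3 and 1, for ER calcium 2 and 1 and for the IRE1 transcripts 2 and 2.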

How the data were processed

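The deposited table holds raw counts per gene for 6 libraries. According to the methods, the authors trimmed reads with BBDuk, aligned them to mm10 with STAR (2.5.3a in the submitters' notes) and counted them with featureCounts on an Ensembl annotation, and the library kit was stranded and depleted of ribosomal RNA. Strand and multi-mapping settings are not given in the sources used here. Genes with at least 1 cpm in at least 3 libraries were kept (13166). The 2 groups were compared in edgeR 4.0.16 (R 4.3.3) with TMM scaling and the quasi-likelihood test, p-values being adjusted over all tested genes by the method of Benjamini and Hochberg, and SEs were derived from the F statistic. The study's text does not name the tool behind its own thresholds. Printed cpm use TMM-scaled library sizes. Replicate numbers were not used as a block in the main fit, and a fit with that block is given below. Deviations of same-numbered replicates correlated at -0.15, 0.19 and -0.36, too few pairs to tell whether they belong together. Neighbour medians were entered as an offset. Alternatives used DESeq2 1.42.0 and limma 3.58.1 among others. Promoters and motif shares came from RefSeq on GRCm38.p6, the build of the files. Protein sequences were not used here. The members and lists were chosen with earlier results of these data known. Named were every called member and, from each further list, at most 4 called genes of largest change, with values per library for the 6 members of smallest p and for Ern1, Atf6, Eif2ak3, Xbp1 and Hspa5, and others where a direction rests on the spread. The procedure was tested on simulated data. Libraries held 18386780 to 28459338 counts.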

Additional observations from a re-analysis of the deposited data

How the results depend on the processing

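Over 16 alternatives, 555 of 623 member values kept their direction and their call, 11 changed sign, and 14 of the 23 called members kept both in every alternative in which they were tested: Eif2ak3, Ern1, Herpud1, Hsp90b1, Hspa5, Pdia3, Pdia4, Ppp1r15a, Sdf2l1, Sec61b, Sil1, Syvn1, Txndc5 and Xbp1. Leaving out 1 library at a time gave 16 to 29 called members where 29.1% to 44.5% of all genes were called. DESeq2 called 21 members higher and 7 lower (40.1% of all genes), and the AY036118 covariate 24 higher and 7 lower (51.5%). The number of members past the study thresholds was 0, and 1 (Herpud1) with no abundance filter, without the 20 most abundant genes or with the neighbour offset, and 0 to 1 over the left-out libraries, 1 without METTL7A1 replicate 1 or mock replicate 1. With the neighbour offset, 6 log2 changes turned sign: Pdia6 to 0.48, Txndc11 to -0.046, Sel1l to 0.19, Os9 to -0.28, Derl2 to 0.15 and Dnajc3 to 0.11, which follows from subtracting the neighbours' median. The other sign changes were of values near 0 that were not called: Pdia6 stood at 0.016 with no abundance filter and ran from -0.094 to 0.069 over the left-out libraries, and Vcp from -0.13 to 0.0046. With no abundance filter 28601 genes were tested and 20.9% called. A fit with a replicate block called 22 members, 18 higher and 4 lower, against 23 without it, and 36.5% of all genes, with Txndc11 the member that lost its call. Whether same-numbered libraries were handled together is not stated in the sources. Their deviations correlated at -0.15, 0.19 and -0.36, and 3 pairs are too few to tell. The calls lost on leaving out a library were those of Atf6, Edem1, Edem3, Os9, Ppp1r15b, Txndc11 and Wfs1, all with log2 changes of 0.37 or less.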

Other observations

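Beyond the members, 7 other tested genes have an ERSE in their promoter window. They were looked up after the values of the members were seen. Of these, 4 were called higher and 1 lower, with a median log2 change of 0.39, where 21.1% of all genes were called higher and 21.0% lower. Calr4, a calreticulin-like gene, stood at 2.14, Pan2 at 0.87, Acacb at 0.63 and Hnrnpa3 at 0.39, while Adcy3 stood at -0.92. In the same order, the medians of their chromosomal neighbours were -0.04, 0.40, -0.13, 0.24 and -0.47. No explanation was tested.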
